A study of Gallus gallus with 16 samples.

Results

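The genes described here are the nuclear genes for the respiratory chain and the ATP synthase of mitochondria, in the posterior eye of the chick. They were taken from the table of counts by symbol (names beginning with NDUF, UQCR, COX4 to COX8 or ATP5, and CYC1 and CYCS), and a gene was kept if it had 10 counts or more in 4 or more of the 16 libraries. Of the 17108 genes in the table, 57 matched and 56 passed, out of 11334 genes that passed the same filter. By role these were 7 core subunits, 20 accessory subunits and 5 assembly factors of complex I, 6 subunits of complex III, 8 of complex IV, 9 of the ATP synthase, and ATP5S, known in mammals as coupling factor B. NDUFA4 was counted with complex IV, where it is placed in mammals, although it is named for complex I. No row was named CYC1 or CYCS, nor COX5B, COX7A1, UQCRB or ATP5O, which the rule would also have taken, so the list is not a full set of the nuclear subunits.

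RNA was sequenced from the right retina/RPE/choroid, taken as 1 tissue, of 16 male Leghorn/New Hampshire chicks, each library from 1 chick. The 4 groups of 4 chicks were No-Lens controls (chicks 3, 4, 6 and 7), which were separate animals never occluded, and chicks whose right eye wore a translucent occluder for 7 days from post-hatch day 5 and then had 0 h (chicks 9, 10, 12 and 13), 6 h (chicks 18, 19, 21 and 23) or 24 h (chicks 26, 29, 30 and 32) of normal vision after its removal (FDMR 0 h, 6 h and 24 h). This places collection on day 12, or day 13 at 24 h, whereas the sample labels give day 20 and day 21. The sequenced chicks were picked by the authors for comparable axial lengths, and the FDMR 6 h chicks were collected about 6 h later in the day than the rest, so that recovery and hour of day cannot be told apart in comparisons with that group.

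The respiratory chain passes electrons from NADH, through complex I, ubiquinone, complex III, cytochrome c and complex IV, to oxygen, and complexes I, III and IV move protons across the inner membrane. The ATP synthase lets these protons flow back and makes ATP. Most subunits are encoded in the nucleus and are assembled with a small set made from mitochondrial DNA, so that each complex needs subunits from both genomes. Photoreceptors are among the cells with the highest demand for oxygen, and in the bird, whose retina has no vessels of its own, much of that oxygen comes from the choroid.

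Counts on genes ranged from 1553717 (FDMR 24 h chick 29) to 4816425 per chick, and a count of 3 equalled 0.623 to 1.93 CPM (counts scaled to library size). Chick 29 was the shallowest library by far, and its values carry the largest counting error. Defining markers of photoreceptors and pigment epithelium were present in every chick: the 5 cone markers tested summed to 4219 to 6681 CPM and the 5 markers of the pigment epithelium to 1217 to 1812 CPM. The 2 striated muscle markers that passed the filter, out of 8 listed, summed to 5.06 to 20.5 CPM, and the 2 red cell markers to at most 11.0 CPM. In such whole-tissue RNA, fewer cells of a type and less RNA per cell cannot be told apart. All libraries entered 1 edgeR fit with TMM scaling, each pair of groups was compared by its quasi-likelihood test, and a gene was called if it passed a Benjamini-Hochberg FDR of 5% over all 11334 genes. Fold changes are on the log2 scale.

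The members' share of the gene counts was 0.38% to 0.447% over the 16 chicks. Their summed level was 4058 ± 46.9 CPM in the controls, 4161 ± 162 at 0 h, 4004 ± 155 at 6 h and 4322 ± 214 at 24 h (SD, n = 4 chicks), and the groups overlapped. Of the 896 values of log2 CPM (56 genes in 16 chicks), 837 (93.4%) lay within 0.5 of the mean of the gene's group means. The values further away came mostly from a few genes, and the map of the members by chick shows them as dark cells in single rows.

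**Figure D1:**
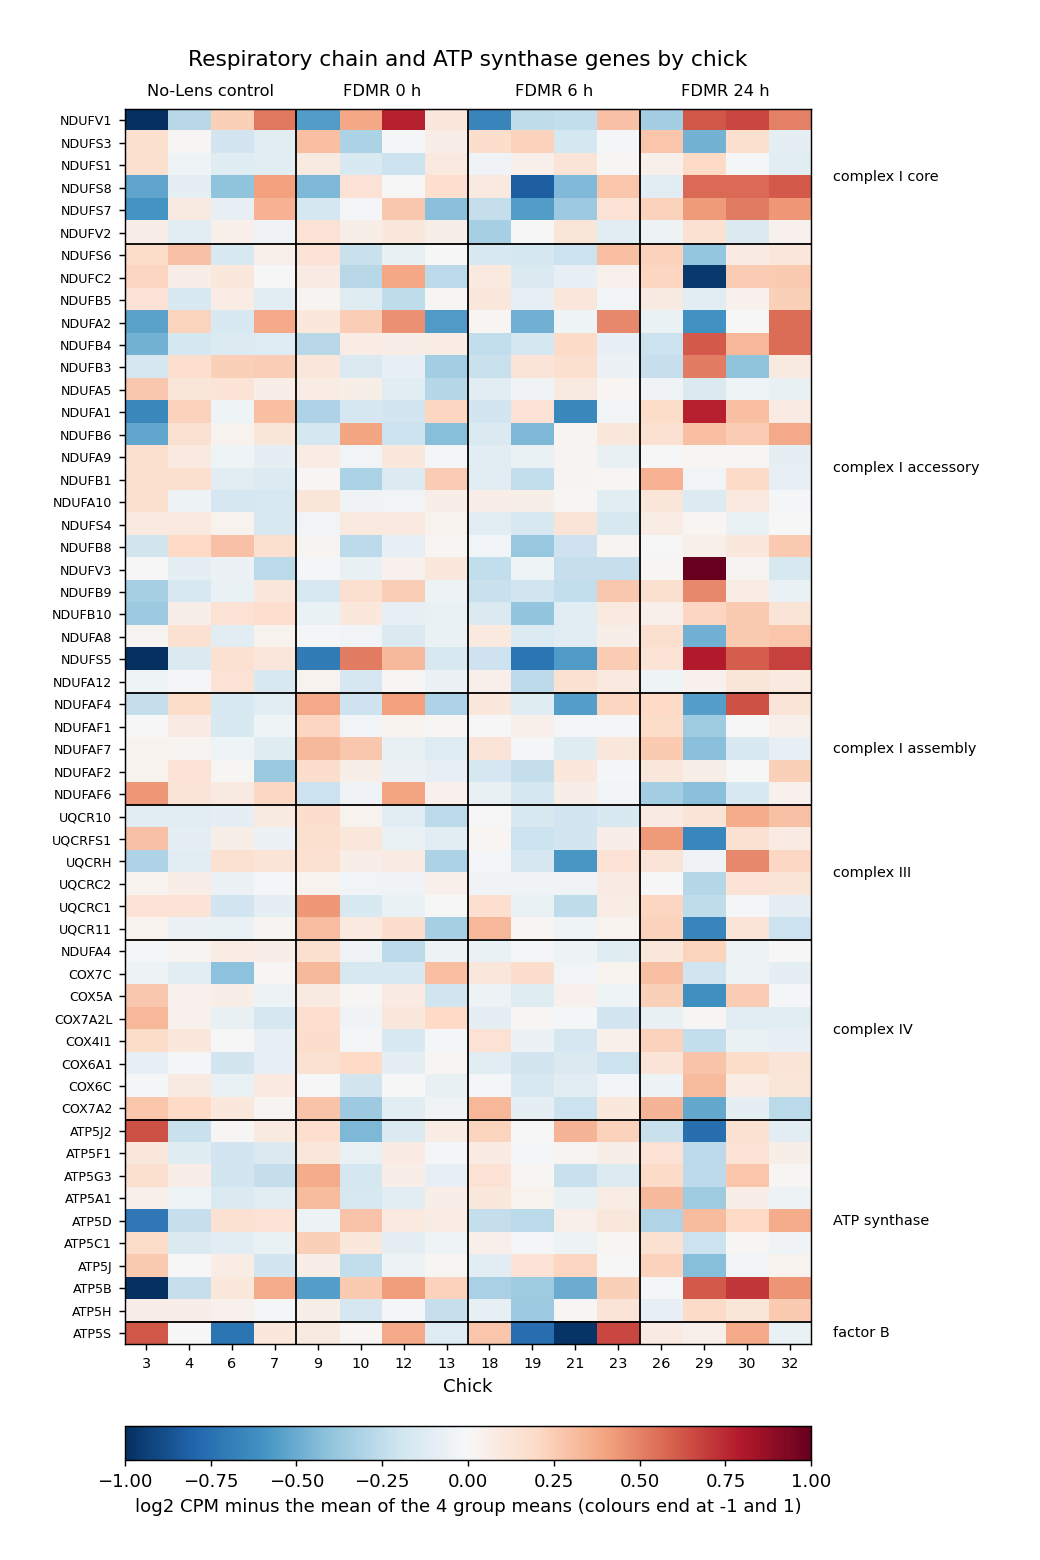
Each row is 1 of 55 of the 56 genes and each column 1 chick, and the colour is log2 CPM minus the mean of the gene's 4 group means (blue lower, red higher, colours ending at -1 and 1). NDUFV1, NDUFS5 and ATP5B are low in control chick 3 and FDMR 0 h chick 9 and high in FDMR 24 h chicks 29, 30 and 32, while most rows are pale throughout.

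After 7 days of occlusion no member differed from the controls past the FDR. None of the 56 was called at 0 h vs control (0.0265% of all genes were), and an unadjusted p under 0.05 was seen for 1, against 4.01% of all genes. This was NDUFA5, an accessory subunit of complex I, at 99.5 ± 6.08 CPM among controls against 86.0 ± 9.85 at 0 h (log2 fold change -0.21 ± 0.08 SE, edgeR adjusted p = 1.0). The median log2 fold change of the members was 0.02, with 30 higher and 26 lower, and that of all genes was 0.005. The median standard error of a member was 0.13, and differences of that size, or somewhat larger, were not detectable at this depth and number of chicks. The largest value, 0.36 in NDUFV1, had a standard error of 0.36 and was not called.

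At 6 h vs 0 h, 43 of the 56 members were lower and 13 higher, with a median of -0.06 against 0.00 for all genes. None was called (3.19% of all genes were), and only COX6A1 had an unadjusted p under 0.05 (11.7% of all genes did). All 5 assembly factors of complex I, 7 of 8 complex IV genes and 5 of 6 complex III genes had the lower mean at 6 h, by 0.24 or less on the log2 scale. So did 15 of 20 accessory and 5 of 7 core subunits of complex I, but only 5 of 9 ATP synthase genes. The largest falls were in these classes, in NDUFV1 (-0.43), ATP5B (-0.34) and NDUFS5 (-0.33), with standard errors of 0.28 to 0.36. At 6 h vs control the median was -0.067, with 38 lower and 18 higher, none called (2.74% of all genes) and 1 with an unadjusted p under 0.05 (9.46% of all genes), which was NDUFB8. These comparisons share the FDMR 6 h chicks with each other and with 24 h vs 6 h.

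The largest shift was at 24 h vs 6 h, where 41 of 56 members were higher and 15 lower, with a median of 0.11 against -0.015 for all genes, of which 46.7% were higher. COX6A1 was the only member called (1.94% of all genes were called, and 0.794% were called as higher). A further 12 members had an unadjusted p under 0.05, and all 13 were higher, beside 15.7% of all genes at that level in either direction and 8.25% as higher. In 4 members all chicks at 24 h exceeded all chicks at 6 h, which held for 3.02% of all genes, and in no member was the order the opposite (4.73% of all genes).

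The groups 0 h, 24 h and control were collected at about the same hour, but the 24 h chicks on day 13 and the others on day 12. The 6 h chicks were also collected on day 12, so that recovery, age and hour of day cannot be told apart in 24 h vs 6 h. In 24 h vs 0 h, recovery and age cannot be told apart, and in 24 h vs control neither can these and the earlier occlusion. With the same 24 h chicks, most members were higher at 24 h here too: 37 of 56 against 0 h (median 0.072) and 38 of 56 against control (median 0.074), with all-gene medians of 0.001 and 0.00. None was called in either, where 1.12% and 1.33% of all genes were. DESeq2 and limma-voom also called no member in any of the 5 comparisons other than 24 h vs 6 h, where each called COX6A1 alone. An unadjusted p under 0.05 was seen for 3 members against 0 h (9.55% of all genes) and for 8 against control (13.8%). Over the 4 groups, 27 of the 56 members (48.2%) had their highest mean at 24 h, against 29.9% of all genes, and 24 (42.9%) had their lowest mean at 6 h, against 22.6% of all genes.

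**Figure D2:**
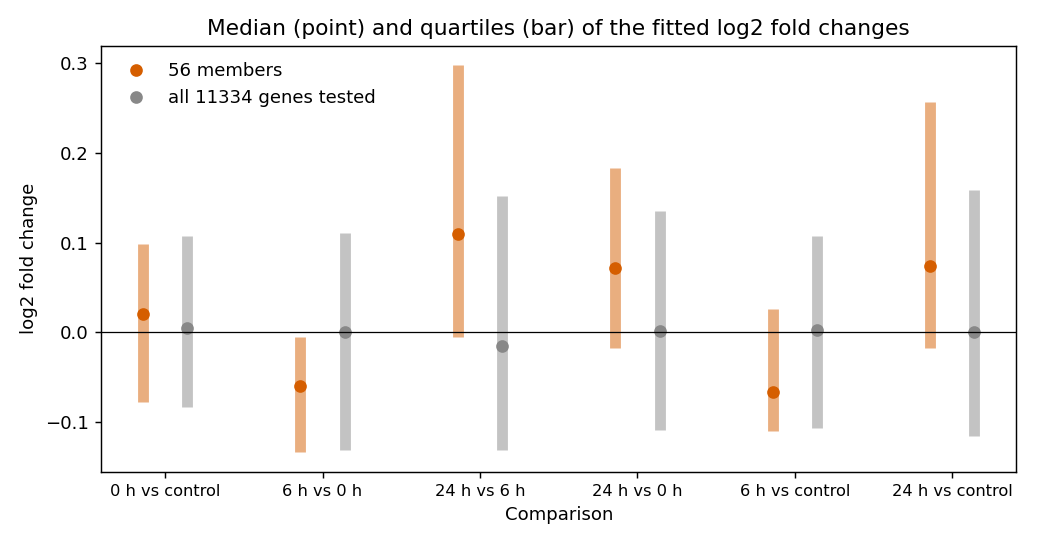
For each of the 6 comparisons, points are the median and bars the lower to upper quartile of the fitted log2 fold changes of the 56 members (orange) and of all 11334 genes tested (grey). The members sit below the grey median in both comparisons of 6 h with an earlier group and above it in the 3 comparisons of 24 h.

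COX6A1 (ENSGALG00000007205) encodes a small nuclear subunit of complex IV, in mammals the isoform found in most tissues. Its level was 64.2, 61.0, 62.8 and 59.5 CPM in the 6 h chicks and 75.9, 84.4, 78.8 and 75.8 CPM in the 24 h chicks. All 24 h chicks exceeded all 6 h chicks, and also all 4 controls, at 65.5, 68.5, 61.0 and 65.3 CPM. Such a separation of 24 h above the controls held for 276 of all 11334 genes. The 0 h chicks, at 77.2, 79.7, 65.1 and 69.8 CPM, lay above the 6 h chicks and overlapped those at 24 h. Of all 11334 genes, 370 were lower at 6 h than at 0 h without overlap. COX6A1 rose from 61.9 ± 2.07 CPM at 6 h to 78.7 ± 4.01 CPM at 24 h (SD, n = 4), which is 0.34 ± 0.08 (SE) on the log2 scale (edgeR adjusted p = 0.0267). The same gene was lower at 6 h than at 0 h (log2 fold change -0.24, edgeR adjusted p = 0.135) and higher at 24 h than in the controls by 0.27 (adjusted p = 0.117), neither of them called. Its spread between chicks of a group was among the smallest, with an SD of 0.086 on the log2 scale, smaller than in all but 4.68% of the genes tested. An SD of 0.089 would come from its counts alone. The call at 24 h vs 6 h was lost when only these 8 chicks were fitted (adjusted p = 0.0524), and without 24 h chick 30 or 32 or any of the 4 chicks at 6 h (up to 0.0855). In all 16 fits with 1 chick left out the log2 fold change stayed between 0.32 and 0.36.

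The other 3 members with no overlap between 6 h and 24 h were UQCR10, NDUFS7 and NDUFB6, and none was called. UQCR10 (ENSGALG00000008066), a small subunit of complex III, had 39.2, 35.3, 34.5 and 35.4 CPM at 6 h and 41.8, 43.2, 51.0 and 48.3 CPM at 24 h (log2 fold change 0.36, standard error 0.11, adjusted p = 0.107 from edgeR). Its controls lay between 36.3 and 42 CPM and its 0 h chicks between 32.8 and 44.6, overlapping both. NDUFS7 (ENSGALG00000009703), a core subunit of complex I that carries an iron-sulfur cluster next to the ubiquinone site, had 19.9, 15.8, 18.3 and 26.1 CPM at 6 h and 27.7, 31.9, 34.0 and 32 CPM at 24 h (0.65, standard error 0.19, adjusted p = 0.106). The 24 h chicks of NDUFS7 also overlapped the controls, whose values of 15.4, 25.1, 22.2 and 30.2 CPM spread over nearly the whole range. NDUFB6 (ENSGALG00000002033), an accessory subunit in the membrane arm of complex I, had 15.4, 12.4, 17.5 and 18.5 CPM at 6 h and 19, 21.3, 20.5 and 22.4 CPM at 24 h (0.38, standard error 0.19, adjusted p = 0.35). The gap between the groups of NDUFB6 was smaller than the SD of either.

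**Figure D3:**
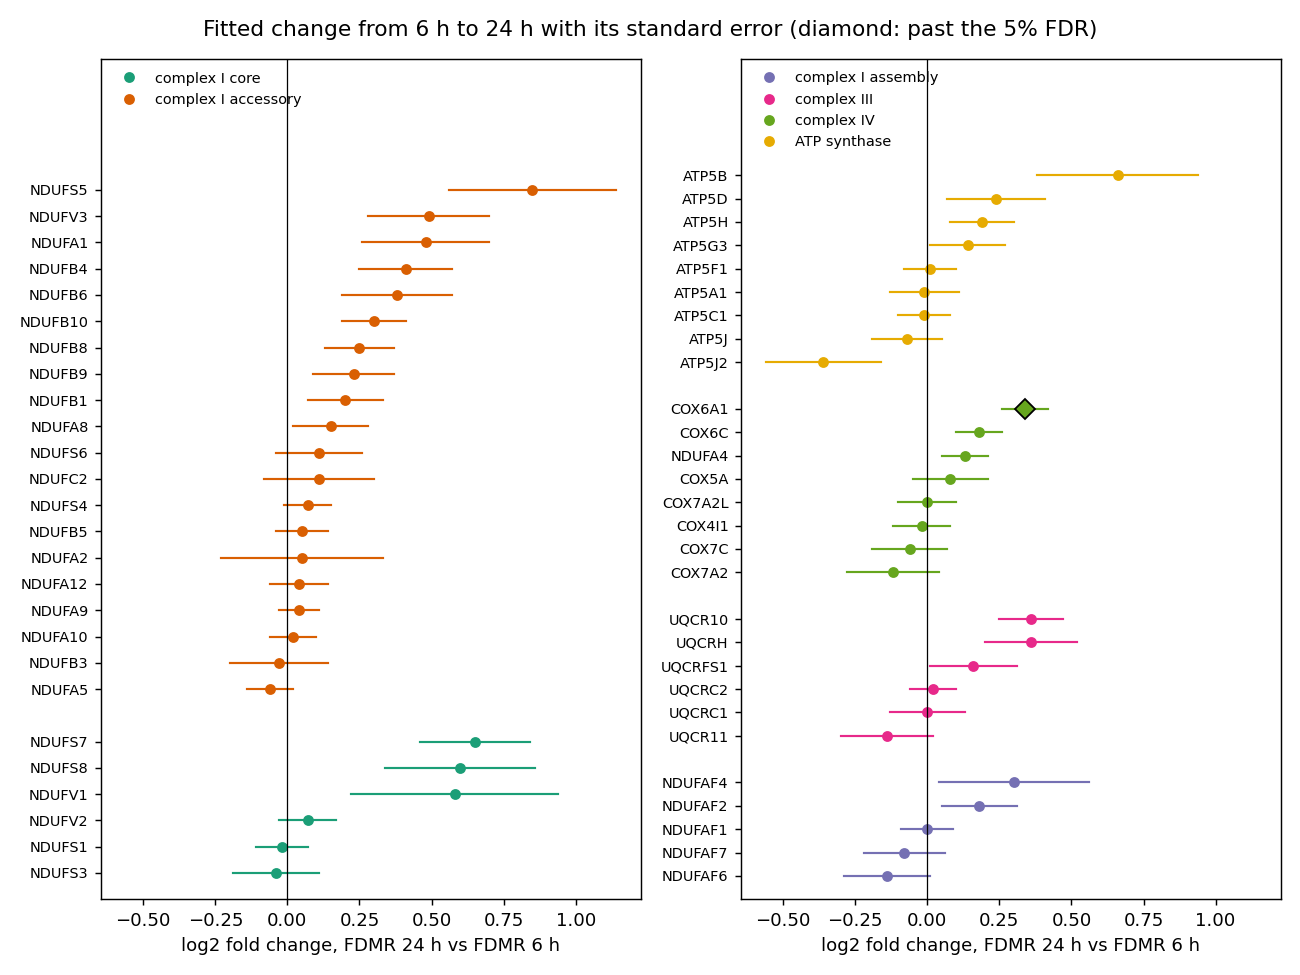
Points are the fitted log2 fold changes at 24 h vs 6 h of 54 members in the 6 classes (coupling factor B is not drawn), sorted within each class, and bars are ± 1 standard error. COX6A1 (diamond) is the only gene past the FDR, and within complex I and the ATP synthase some subunits lie near 0 and others above 0.5.

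Complex I makes up most of the list and held most of the higher values, near its share of the members. Of its 20 accessory subunits, 18 were higher at 24 h than at 6 h (median 0.13), with 6 at an unadjusted p under 0.05, and their summed level was 986 to 1070 CPM at 6 h and 1128 to 1144 CPM at 24 h. The 24 h chicks thus lay above all 12 others in this sum, the controls being at 1048 to 1100 CPM and the 0 h chicks at 1055 to 1083 CPM. Without NDUFV3, whose 57.8 CPM in chick 29 stood against 20.3 to 26.4 CPM in the other 15, the sum was 1079 to 1119 CPM at 24 h and at most 1077 CPM elsewhere. NDUFV3 itself, a subunit at the NADH-binding end of the complex, had a log2 fold change of 0.49 at 24 h vs 6 h and of 0.16 without chick 29, in which it had 87 counts. The largest value of any member was that of NDUFS5 (ENSGALG00000003625), an accessory subunit on the outer face of the membrane arm, at 0.85 (standard error 0.29, adjusted p = 0.168 from edgeR). NDUFS5 had 11.0, 7.5, 8.49 and 15.3 CPM at 6 h and 14.1, 22.6, 19.8 and 20.8 CPM at 24 h, and the groups overlapped by 1 chick on each side. NDUFA5 was the lowest of the class (-0.06), and NDUFA10, the accessory subunit with the most counts, stayed at 197 to 248 CPM in all chicks (0.02, standard error 0.08).

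The 7 core subunits of complex I, which carry the flavin and the iron-sulfur clusters, had unlike values. None was called, and differences between genes were not tested. NDUFS7, NDUFS8 and NDUFV1 had log2 fold changes of 0.65, 0.60 and 0.58 at 24 h vs 6 h, with standard errors of 0.19 to 0.36. NDUFV2, NDUFS1 and NDUFS3, partners of these in the same arm of the complex, had 0.07, -0.02 and -0.04, with standard errors of 0.09 to 0.15. NDUFS1, the core subunit with the most counts, was at 152 ± 14.4, 150 ± 16.7, 159 ± 7.74 and 158 ± 14.8 CPM in the control, 0 h, 6 h and 24 h groups (SD, n = 4). NDUFV1 (ENSGALG00000026732), which binds NADH, ranged by contrast from 6.43 to 34.1 CPM among the controls alone (chicks 3 and 7), from 15.9 to 40.6 CPM at 0 h, from 14.7 to 29 CPM at 6 h and from 18.5 to 37.7 CPM at 24 h. Its within-group SD on the log2 scale was 0.662, larger than that of 95.4% of all genes, while an SD of 0.147 would come from its counts alone. The 5 assembly factors of complex I, which are not part of the finished enzyme, showed no common direction, with values from -0.14 (NDUFAF6) to 0.30 (NDUFAF4). The value of NDUFAF4 was 0.09 without 24 h chick 30, 0.17 without 6 h chick 21 and at most 0.44 (without 24 h chick 29), and that of NDUFAF6 went from -0.24 without 24 h chick 32 to -0.08 without 24 h chick 26 or 29. NDUFAF6 was lower in every 24 h chick (18.3, 17.3, 20.9 and 24.0 CPM) than in every control (31.6, 25.5, 24.8 and 27.0 CPM), without being called (log2 fold change -0.42, adjusted p = 0.216 from edgeR). At 24 h vs control, 2 of the 56 members were lower without overlap, beside 439 of all 11334 genes. The other was NDUFA5 (-0.22, adjusted p = 0.264 from edgeR). COX6A1 alone was higher in this way, beside 276 of all genes.

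The catalytic head of the ATP synthase also held subunits with unlike values, whose difference was not tested. ATP5A1 (ENSGALG00000014644) and ATP5B (ENSGALG00000022539) encode the alpha and beta subunits, which alternate in equal number in the head. ATP5A1 had 396 ± 23.5, 423 ± 65.5, 422 ± 22.8 and 417 ± 80.6 CPM in the control, 0 h, 6 h and 24 h groups, and its log2 fold change at 24 h vs 6 h was -0.01 (standard error 0.12). ATP5B had 100, 229, 290 and 347 CPM in control chicks 3, 4, 6 and 7, and 183, 322, 359 and 315 CPM in the 0 h chicks. At 6 h it had 214, 210, 191 and 318 CPM and at 24 h 267, 411, 439 and 366 CPM, so that 24 h chick 26 and 6 h chick 23 lay inside the range of the other group. The log2 fold change of ATP5B at 24 h vs 6 h was 0.66 (standard error 0.28, adjusted p = 0.252 from edgeR). The ratio of ATP5B to ATP5A1 in CPM, which also reflects transcript length, went from 0.235 in control chick 3 to 1.28 in FDMR 24 h chick 29, and was 0.55 ± 0.122 at 6 h and 0.933 ± 0.315 at 24 h. ATP5B had 1079 counts per chick on average, so that counting error (an SD of 0.044) was a small part of its within-group SD of 0.504. The remaining subunits of the head and stalks, ATP5C1, ATP5D, ATP5F1, ATP5H and ATP5J, ranged from -0.07 to 0.24, ATP5G3, the only gene here for the proton-carrying ring, had 0.14, and ATP5J2, a membrane subunit, had the lowest value of all members (-0.36, standard error 0.20, adjusted p = 0.383).

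**Figure D4:**
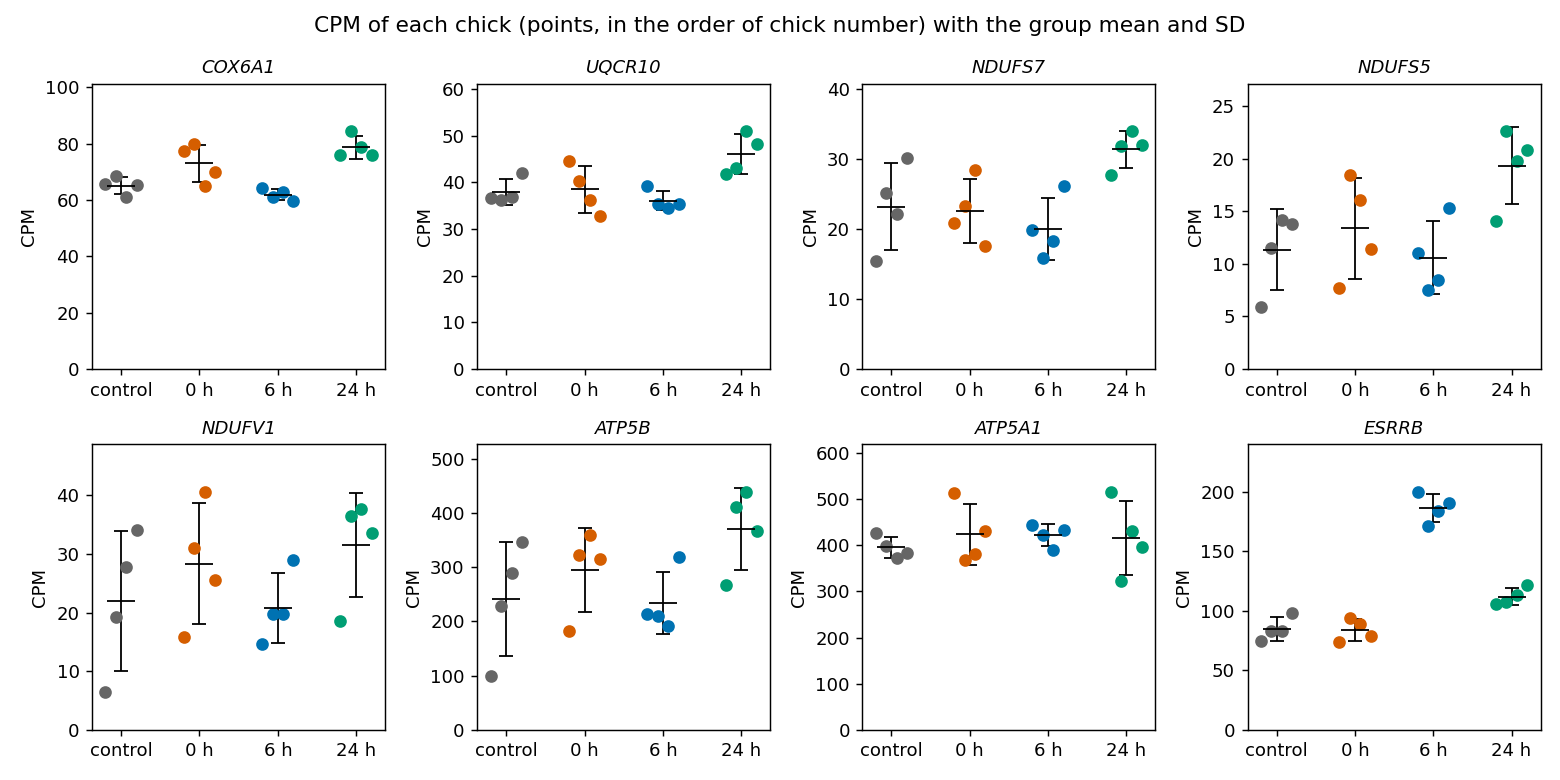
Points are the CPM of each chick in order of chick number, with the group mean and SD, for 7 members and for ESRRB, on axes that start at 0. COX6A1 differs between 6 h and 24 h with little spread, NDUFV1 and ATP5B vary several-fold among chicks of 1 group, ATP5A1 does not, and ESRRB is highest in the 4 chicks at 6 h.

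In complexes III and IV the medians at 24 h vs 6 h were 0.092 and 0.04. Besides UQCR10, UQCRH, the hinge protein of the complex, had 0.36 (edgeR adjusted p = 0.272), while UQCRC2, the complex III gene with the most counts, had 0.02 (standard error 0.08) and UQCR11 had -0.14. In complex IV, COX6C was the only gene other than COX6A1 with an unadjusted p under 0.05 (0.18, adjusted p = 0.286). COX4I1, the complex IV gene with the most counts, had -0.02 (standard error 0.10), and the related COX7A2 and COX7A2L had -0.12 and 0.00; no tissue-restricted isoform of these genes was among the members. NDUFA4 had 0.13 (standard error 0.08), from 138 to 148 CPM at 6 h and from 145 to 175 CPM at 24 h. A row named CYC, which lies outside the rule and is described in the table as somatic cytochrome c, had 0.08 (standard error 0.12, adjusted p = 0.773).

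**Figure D5:**
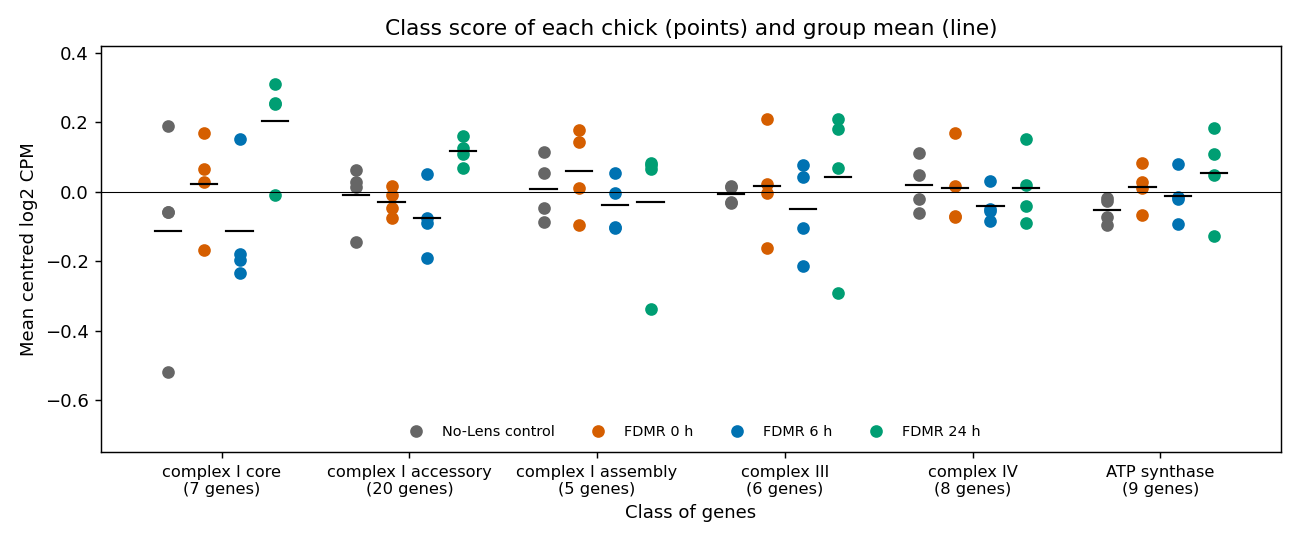
Each point is 1 chick, and its score is the mean over the genes of a class of log2 CPM minus the mean of the gene's 4 group means; lines are group means. The complex I accessory subunits are the only class in which all 4 chicks at 24 h (0.067 to 0.161) lie above all others. The nearest other chick in this class is control chick 4, at 0.062, where the SD within a group is 0.039 to 0.099. Control chick 3 is the lowest in the core class (-0.519).

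Several of the members that varied most between chicks followed a common axis, and others did not. The main axis of differences between chicks of the same group, a principal component over the tested genes that are not members, held 39.5% of the within-group variance. Its lowest chicks were control chick 3 (-2.16), FDMR 0 h chick 9 and FDMR 24 h chick 26 (both -1.47). As it was computed from deviations from the group means, each group has a mean of about 0 on it. Per unit of this axis, NDUFV1 changed by 0.57 on the log2 scale, ATP5B by 0.43, NDUFS5 by 0.39, NDUFS8 by 0.26, ATP5D by 0.22 and NDUFS7 by 0.21. ATP5S, NDUFAF4 and NDUFV3, with within-group SDs of 0.507, 0.365 and 0.329, had weights of only -0.01, -0.02 and 0.04. In all, 7 of 56 members (12.5%) were above 0.2, near the 13.4% of all genes, and 34 members had a weight below 0. These 7 members had a median log2 fold change of 0.60 at 24 h vs 6 h, against 0.07 for the other 49, of which 34 were higher, and the 1515 genes with such weights had a median of 0.50. Across the 56 members, which share the libraries and are not independent, the weight and the log2 fold change at 24 h vs 6 h had a Pearson's r of 0.79, against 0.61 across all genes. What the axis stands for was not tested.

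With this axis as a covariate, an alternative chosen after seeing the data, 10 members were called at 24 h vs 6 h, all higher, beside 12.2% of all genes. Among them were NDUFS7, NDUFS8, NDUFV1, NDUFS5, NDUFB4, NDUFB10, UQCR10, COX6A1 and ATP5B, the last with 0.69 (standard error 0.09, adjusted p = 2.26e-05 from edgeR). That fit called 8 members at 24 h vs control (11.5% of all genes), 3 against 0 h (4.16%) and, at 6 h vs 0 h, ATP5B alone (1 member, 7.24% of all genes), with a value of -0.33. Since the axis was estimated from these same libraries, the p-values of that fit are too small. As each group has about the same mean on the axis, the covariate lowered the standard errors but could not adjust a difference between groups. For ATP5B at 24 h vs 6 h, the fit without it gave 0.66 (standard error 0.28). The likelihood ratio test of edgeR called COX6A1 and NDUFS7 at 24 h vs 6 h (3.34% of all genes) and NDUFB4 at 24 h vs control (2.63%).

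The other genes of the system were read from lists of complex II, of assembly factors, of transcription factors, of carriers and of mitochondrially encoded genes. Of the 53 tested, 2 (3.77%) were called in any of the 6 comparisons, beside 5.27% of all genes, and both are orphan nuclear receptors known in mammals to bind promoters of oxidative metabolism genes. Control chicks had 74.4, 82.7, 82.8 and 98.0 CPM of ESRRB (ENSGALG00000010365), and the chicks at 0 h had 73.9, 94.0, 88.4 and 78.7 CPM. At 6 h it was at 199.8, 171, 183 and 190.3 CPM and at 24 h at 105.6, 107.6, 112.9 and 121.2 CPM. The 6 h chicks lay above all others and the 24 h chicks above those at 0 h and the controls. ESRRB rose by 1.15 from 0 h to 6 h (standard error 0.09, adjusted p = 2.23e-07 from edgeR) and fell by 0.73 from 6 h to 24 h (adjusted p = 0.000145), opposite in sign to the median of the members in both. It remained higher at 24 h than at 0 h, by 0.42 (adjusted p = 0.0274), and than in the controls, by 0.40 (adjusted p = 0.0317), but each of these calls was lost in 6 of the 16 fits that left out a chick (adjusted p up to 0.124 and 0.134) and when only the compared groups were fitted (0.0536 and 0.133). ESRRG (ENSGALG00000009645) was at 300 ± 9.14 CPM at 6 h and 250 ± 9.73 CPM in the controls (log2 fold change 0.27, adjusted p = 0.0377 from edgeR). The call of ESRRG was lost in 10 of those 16 fits, with adjusted p up to 0.12. None of PPARGC1A, PPARGC1B, PPRC1, TFAM, TFB1M, TFB2M, POLRMT, GABPA, GABPB1 and YY1 was called. Of the 14 listed genes of transcription control, 12 were found by symbol. NRF1 and ESRRA were not found and so were not tested.

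The 3 genes of complex II, which feeds electrons from succinate, were not called, with SDHA at -0.01, SDHD at -0.05 and SDHC at 0.60 (adjusted p = 0.408 from edgeR) at 24 h vs 6 h. Of 10 assembly factors of complex IV, 4 further ones of complex I, 2 of complex III and 3 of the ATP synthase, none was called either, and the medians at 24 h vs 6 h were 0.02, 0.10, 0.20 and -0.07. The 7 carriers and channels had a median of -0.03, with 3 higher, 4 lower and none called. Among them, the ADP/ATP carriers SLC25A6 and SLC25A4 had the highest values, 0.42 (edgeR adjusted p = 0.0735) and 0.55 (adjusted p = 0.173). The 12 mitochondrially encoded genes had a median of 0.30 at 24 h vs 6 h, with 11 higher and none called. Their sums overlapped, at 39420 to 51880 CPM at 6 h and 42770 to 72230 CPM at 24 h. The shallow 24 h chick 29 had 21820 CPM of MT-CO1, against 13840 to 16670 CPM in the other 24 h chicks and 12210 to 16060 CPM at 6 h. At 6 h vs 0 h the median of these genes was 0.14, and all 12 had the higher mean while most nuclear members had the lower. None of the 12 was called there (3.19% of all genes were), and the sums overlapped, the 0 h chicks being at 37260 to 44540 CPM. MT-CO1 had 16060 CPM in 6 h chick 21, against 12210 to 13250 CPM in the other 6 h chicks and 11630 to 13820 CPM at 0 h.

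Some markers of several cell types differed in the same comparison, 24 h vs 6 h, and others did not. The 5 cone markers summed to 4219 to 4775 CPM at 6 h and 5250 to 6592 CPM at 24 h, with no overlap, and ARR3 (1.03) and PDE6C (0.43) were called higher at 24 h. All 5 had the higher mean, but GNAT2 was at 489 ± 67.2 CPM at 6 h and 526 ± 69.6 CPM at 24 h (SD, n = 4). In rods, PDE6B was called higher (0.91), 1 of 5, and the 5 markers summed to 2076 to 2538 CPM at 6 h and 2517 to 3513 CPM at 24 h. Of these 5, 4 were higher and 1 lower (-0.14). In the pigment epithelium LRAT was called higher (1.0), also 1 of 5, with sums of 1241 to 1535 CPM and 1452 to 1812 CPM, and the groups overlapped in the sums of rods and pigment epithelium. Of the 5 pigment epithelium markers, 4 were higher and 1 lower (-0.03), and RPE65 was at 615 ± 88.1 CPM at 6 h and 604 ± 95.6 CPM at 24 h (SD, n = 4). The 3 markers of Mueller glia summed to 3070 to 3553 CPM at 6 h and 3653 to 3978 CPM at 24 h, with no overlap and none called. Of these 3, 2 were higher and 1 lower (-0.08), and RLBP1 was counted both here and in the pigment epithelium. In the endothelium VWF was called lower (-1.19), 1 of 3, and the sums of 475.9 to 632.1 CPM and 388.0 to 487.2 CPM overlapped. Of 2 markers each of smooth muscle, striated muscle, leukocytes and red cells none was called, and the sums overlapped. No listed marker in the table was at 0 in all chicks. The part of these shifts in the values of the respiratory chain genes was not tested.

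ATP5A1W, the copy of ATP5A1 on the W chromosome of female birds, was the 1 matched gene that failed the filter. It had 1 to 10 counts in each of these male chicks. As the copies are near-identical, reads could have been assigned to either, so the small share of ATP5A1 counts that this involves is uncertain. ATP5S passed the filter with few counts and had 1.03 to 4.34 CPM over the 16 chicks, so that no change in it was detectable at this depth.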

How the data were processed

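The authors trimmed single-end reads with CutAdapt and Trimmomatic, used TopHat2 with Bowtie2 to map them to GalGal4, and ran htseq-count on reads of unique position. What they deposited are the raw counts of 17108 genes. The versions, the annotation release and the strand option are not given in the sources used here, so overlapping genes and near-identical copies are uncertain. The 6 lines that name no gene (41.9% to 45.9% of a chick's total, mostly reads on no annotated gene) entered neither library sizes nor tests. The paper and the labels name different RNA kits and RNA integrity limits.

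Groups came from the labels, with the chick as replicate. R 4.3.3 with edgeR 4.0.16 (TMM, quasi-likelihood), limma 3.58.1 and DESeq2 1.42.0 was used, and tables and figures were made with pandas 2.3.3 and matplotlib 3.10.9 in Python 3.11.15. Log2 CPM had a prior count of 2. The scripts were tested on simulated counts. Members and lists were chosen with earlier results of these data known. Genes named are the called members, in each class the member with the most counts and those with the largest rise and fall at 24 h vs 6 h, isoform groups, and members whose groups do not overlap there; NDUFV1, NDUFV2, NDUFS8, NDUFV3, NDUFB4, NDUFB8, NDUFB10, COX6C, ATP5C1, ATP5D, ATP5F1, ATP5H and ATP5J were added after their values were seen. Alternatives were RLE factors, DESeq2, edgeR's likelihood ratio test, limma-voom, no filter, a filter at 1 CPM in 4 libraries, only the compared groups, a prior count of 0.5 for scores, and leaving out each chick. No sequences, gene lengths or coordinates of the GalGal4 build were used here. Levels were therefore not corrected for gene length, which also applies to the ratio of ATP5B to ATP5A1 in CPM. A gene is not reported here.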

Additional observations from a re-analysis of the deposited data

Results flagged for a closer look

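Over 184 groups of 4 chicks (46 genes and class scores), the highest or lowest chick stood apart by more than Dixon's 95% limit in 10, where chance alone flags about 1 group in 20. FDMR 24 h chick 29, the shallowest library, was high in NDUFV3, at 57.8 CPM, and low in the score of the complex I assembly factors, at -0.337. FDMR 24 h chick 26 was low in NDUFS8, at 14.3 CPM. FDMR 6 h chick 23 was high in UQCRC2, at 123 CPM, and in the score of the complex I core subunits, at 0.152, and FDMR 6 h chick 19 was high in NDUFV3, at 23.8 CPM. NDUFB4 was low in control chick 3, at 23.8 CPM, and in FDMR 0 h chick 9, at 27.4 CPM. FDMR 0 h chick 10 was high in NDUFB10, at 86.0 CPM, and control chick 7 in UQCR10, at 42 CPM.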

How the results depend on the processing

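The count of members called was the same in 129 of 144 cases, each being 1 alternative in 1 comparison. Only 24 h vs 6 h had a member called in the main fit, so that in the other comparisons the same count means 0. The median log2 fold change moved by less than the SD between chicks of the members' score (0.07) in all 144. Most of the medians were themselves no larger than about that SD, so this limit cannot show that they are stable. At 24 h vs 6 h, where 1 member was called, the count was 2 with the likelihood ratio test, 0 with only the compared groups, 10 with the axis as covariate and 0 to 2 with 1 chick left out. At 24 h vs control it was 1 with the likelihood ratio test, 8 with the axis and 0 to 1 with 1 chick left out (1 without 24 h chick 26, NDUFB4 at 0.72). With the axis it was 3 for 24 h vs 0 h and, for 6 h vs 0 h, 1, and no member was called in these or the remaining comparisons under the others. The median at 24 h vs 6 h stayed between 0.066 and 0.155 with 1 chick left out, and that at 0 h vs control between -0.024 and 0.044, changing sign. For 6 h it lay between -0.104 and -0.009 against 0 h and between -0.08 and -0.007 against control, close to 0 in some fits. For 24 h it lay between 0.034 and 0.103 against 0 h and between 0.038 and 0.132 against control. Without control chick 3, or without 6 h chick 23, NDUFS7 was called at 24 h vs 6 h (0.65 and 0.80). Without 6 h chick 23 it was called in place of COX6A1, so that the count was the same but the gene was not. The 84 class score differences moved by less than their SD with a prior count of 0.5 or RLE factors. No paired analysis was possible because each library came from a different chick. ESRRB kept its calls for 6 h vs 0 h, 6 h vs control and 24 h vs 6 h in all alternatives, and lost those against 0 h and control at 24 h in 7 fits each (adjusted p up to 0.124 and 0.134). The depth of chick 29 limits what genes of a few CPM can show.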
